A study of Mus musculus with 6 samples.

Results

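The SLAM family receptors are immunoglobulin-type surface proteins of blood cells, and 8 of their genes were examined here among the 23282 gene entries of each count table: Slamf1, Slamf6, Slamf7, Slamf8, Slamf9, Cd48, Cd84 and Cd244. They were taken by symbol, and all 8 had an entry in all 6 tables. The family was picked because Slamf7 appeared with CPN, so CPN against control values of the 8 genes are given as a description, with no test. The cells were RAW 264.7, a mouse macrophage line that can be driven to form osteoclasts, the multinucleated cells that resorb bone. All 6 samples were taken at day 5 of osteoclast differentiation, 3 labelled control and 3 labelled CPN. The title of the series speaks of chaperonin 60 kDa, and the labels do not spell out CPN. The labels give no source, dose or time of addition for CPN, no agent that drove differentiation, and no statement that the samples were separate cultures. For the other genes, p-values therefore rest on library-to-library spread alone, and that spread may be technical.

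Most SLAM receptors bind a copy of themselves on a neighbouring cell, so that they report contact between blood cells. The exception in pairing is CD244, which binds CD48, a small family member held in the membrane by a lipid anchor. The tails of SLAMF1, SLAMF6, SLAMF7, CD84, CD244 and LY9 carry tyrosine switch motifs. These recruit either the small adaptors SAP and EAT-2, which favour activation, or phosphatases such as SHP-1 and SHIP-1, which restrain it. SLAMF8, SLAMF9 and CD48 lack such motifs. In macrophages SLAMF7 is known for its part in engulfing blood tumour cells, SLAMF1 for sensing bacteria in phagosomes, and SLAMF8 for limiting the oxidative burst.

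Libraries held between 7957228 and 9713938 counts from transcript 3′ ends, and levels are in counts per 1000000 (CPM) after TMM scaling of library size. Because reads came from 3′ ends, counts were not divided by transcript length when genes were ranked by level. Low counts held more zeros than sampling around 1 mean would give. Among 707 entries with a mean of 6 to 12 counts, each library had 14.0% to 41.2% zeros, and a Poisson draw with mean 6 would give 0.248%. CPN 1 and control 3 had the fewest such zeros. The mean ran over both groups, so genes that differ between the groups also add zeros, and their part was not separated. The macrophage genes Csf1r and Cd68 had 629 ± 98.0 and 845 ± 13.6 CPM in control (SD, n = 3), and the osteoclast genes Acp5 and Ctsk had 1021 ± 84.0 and 1320 ± 64.7 CPM. These were the highest of their lists in control. Of the other macrophage markers Fcgr1 and Aif1 had 7.07 and 7.03 CPM in control, and Mertk was at 0 in every library. Of the other osteoclast markers Itgb3 and Calcr had 1.19 and 0.117 CPM in control. Of 13 T and NK cell markers, 8 were at 0 in every library, among them Cd3g, Zap70, Cd8a and Ncr1. The B cell genes Cd79b, Ms4a1 and Pax5 were also at 0 throughout.

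All 8 genes lie on mouse chromosome 1 (GRCm38, RefSeq coordinates). Cd244 (171558718 to 171585316), Slamf7 (171632403 to 171653037), Cd48 (171681245 to 171705258), Slamf1 (171767131 to 171801184), Cd84 (171839697 to 171890718) and Slamf6 (171917458 to 171948958) form a cluster of 390.2 kb. Between Cd244 and Slamf7 sits Ly9 (171588613 to 171607410), which encodes another SLAM receptor, SLAMF3, and is not one of the 8. Slamf9 (172458569 to 172478421) and Slamf8 (172581377 to 172590873) lie 509.6 kb and more beyond Slamf6. Slamf7, Ly9 and Slamf8 are on the minus strand and the others on the plus strand. In the GENCODE annotation Slamf7 overlaps the antisense gene Gm37787, and Ly9 overlaps a long form of Cd244 on the other strand. The use of strand in counting is not given in the sources used here, so reads of such partners cannot be told apart.

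The start regions of Slamf7 and Cd84 are shown because these members had the most counts in CPN and in control, respectively. Each line gives bases 250 to 11 before the transcript start used in the RefSeq promoter table (GRCm38.p6), with motif matches in capitals. For Slamf7 that start lies inside the gene's span given above, not at its outer end, where a longer transcript begins. Slamf7 is at chr1:171649010-171649249, minus strand, and Cd84 at chr1:171839447-171839686, plus strand. No annotated exon overlaps either stretch, and that of Slamf7 lies inside the gene's GENCODE span.
Slamf7: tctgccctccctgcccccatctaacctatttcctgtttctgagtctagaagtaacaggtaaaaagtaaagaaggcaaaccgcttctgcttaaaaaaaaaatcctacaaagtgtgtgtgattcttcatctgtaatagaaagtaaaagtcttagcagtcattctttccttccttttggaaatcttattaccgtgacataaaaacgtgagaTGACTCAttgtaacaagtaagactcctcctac
Cd84: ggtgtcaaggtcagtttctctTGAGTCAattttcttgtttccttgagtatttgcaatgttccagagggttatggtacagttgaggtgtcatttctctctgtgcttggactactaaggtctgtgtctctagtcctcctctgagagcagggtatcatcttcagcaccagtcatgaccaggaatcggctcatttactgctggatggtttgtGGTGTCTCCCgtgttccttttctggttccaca
The 250 bases before the start were searched on both strands in the 8 members, all of which matched a RefSeq entry, for 8 motifs. The stretches of Slamf8, Slamf9, Cd48 and Cd244 also lay inside those genes' RefSeq spans, and that of Cd48 overlapped an exon of A630035G10Rik. The capitals in Slamf7 mark an AP-1 match (TGANTCA) at 42 to 36 bases before the start. Cd84 held an AP-1 match at 229 to 223 bases and an NF-kB match, read on the minus strand, at 42 to 33 bases. AP-1 was found in 3 of the 8 members, the third being Cd244, against 6.75% of 32851 RefSeq start regions of the same length. NF-kB was found in 2, the other being Slamf6, against 45.8%, and this loose motif is common. Slamf8 held the interferon response core (2.98% of all), Slamf9 the PU.1 core (GAGGAA, 23.3%) and Cd244 a C/EBP match (TTGCNNAA, 9.56%). The composite ETS-IRF (2.3%), GAS (TTCNNNGAA, 7.02%) and CRE (TGACGTCA, 1.55%) motifs were in none of the 8 windows. The ISRE core and the ETS-IRF composite share letters and can match the same stretch. A match of letters is a description and not a binding site.

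Among the receptors with switch motifs, Slamf7 was the member that appeared with CPN. It had 0, 0 and 1 counts in control 1 to 3 and 245, 383 and 353 counts in CPN 1 to 3. On the CPM scale the controls were at 0, 0 and 0.117, and the CPN libraries at 29.4, 50.2 and 43.8. All 3 CPN libraries thus lay far above all 3 controls, with a mean of 41.1 ± 10.6 CPM in CPN (SD, n = 3). The 981 CPN counts against 1 control count gave a ratio of 1106 after scaling, with an exact 95% interval of 198 to 43741 that covers counting error only. The libraries of each group were pooled for it, so library-to-library spread is left out. The family was chosen from this comparison, so the interval is a description and no test. The single control count lay in control 3, and without that library no control count was left and no ratio is given. Among the 14630 entries above 0 in any library, the Slamf7 level stood above 8.49% of entries in control and above 70.2% in CPN.

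**Figure D1:**
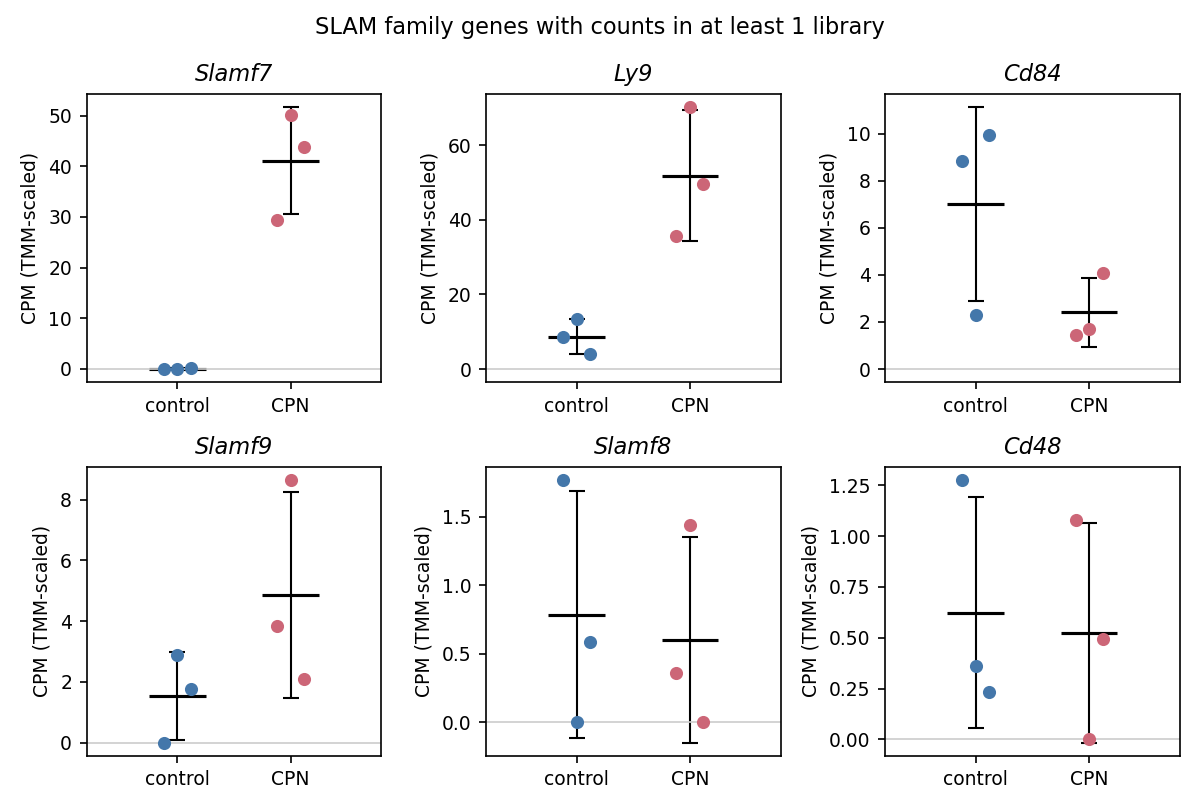
Levels of Ly9 and the 5 SLAM genes of the 8 with any count, in CPM (vertical axes, separate linear scales) for 3 control and 3 CPN libraries. Points are libraries, bars the mean and whiskers the SD. Slamf7 and Ly9 have no overlap between the groups, while Cd84, Slamf9, Slamf8 and Cd48 overlap.

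Cd84, whose receptor binds itself on platelets, B cells and macrophages, had the most counts of the 8 in control. Its 3 control libraries held 90, 19 and 85 counts (8.83, 2.28 and 9.93 CPM) and the CPN libraries 12, 13 and 33 (1.44, 1.70 and 4.09 CPM). Control 2 was low and lay between the CPN values, so the groups overlapped. The fitted log2 difference, CPN minus control, was -1.53 ± 0.814 (SE). It was -2.15 without CPN 3, -1.94 without control 2 and -1.20 without control 3.

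Slamf1, Slamf6 and Cd244 had 0 counts in all 6 libraries. Their receptors are best known from T cells, B cells and NK cells, and SLAMF1 also from activated macrophages. For counting error alone, a count of 0 allows up to 3 counts, which is between 0.294 CPM in control 1 and 0.393 CPM in CPN 2. Given the excess of zeros among low entries, a 0 in these libraries does not hold a level to that limit. Their expression was not detectable at this depth in either group, and no fold is given.

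Slamf9, a short-tailed member found on myeloid cells, had 0, 24 and 15 counts in control and 32, 66 and 17 in CPN. In CPM these were 0, 2.87 and 1.75 against 3.84, 8.64 and 2.11. The highest value was in CPN 2, the 0 was in control 1, and CPN 3 lay below control 2. The fitted log2 difference was 1.66 ± 1.20 (SE). With 1 library left out it ranged from 0.96 without CPN 2 to 2.49 without control 2, and limma-voom gave 2.88.

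Slamf8, the other member with no switch motif in a transmembrane protein, was close to the limit of detection. It had 18, 0 and 5 counts in control and 3, 11 and 0 in CPN, and both groups included a library at 0. The ratio of totals, CPN over control, was 0.686, with an exact 95% counting interval of 0.327 to 1.39. Cd48, the lipid-anchored ligand of CD244, had 13, 3 and 2 counts in control and 9, 0 and 4 in CPN. Its ratio of totals was 0.814, with an interval of 0.367 to 1.76. Both genes fell below the low-count filter. The intervals pool the libraries of each group and leave out library-to-library spread, so no reading of equal or different levels is drawn from them.

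Of the 8 members, 3 passed the low-count filter (Slamf7, Slamf9 and Cd84), 2 had too few counts and 3 were at 0. In the fit across 11092 genes with edgeR's quasi-likelihood test, Slamf7 was the 1 member called at an adjusted p of 0.05, where 14.0% of all tested genes were called in either direction, 7.62% higher and 6.39% lower. Slamf7 passed the filter only through its CPN libraries, and the comparison had served to choose the family, so the count is printed without any reading. Slamf7 was likewise the 1 tested member whose groups did not overlap, against 32.6% of all tested genes in either direction and 16.9% with CPN the higher.

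Ly9, between Cd244 and Slamf7, was not part of the choice and was tested in the same fit. It rose with CPN: its controls were at 8.63, 13.4 and 4.09 CPM and its CPN libraries at 35.6, 70.3 and 49.6 CPM. The groups did not overlap, and the rise was 5.95-fold (edgeR adjusted p = 0.00111; log2 scale 2.57, SE 0.412). The log2 fold change lay between 2.24 and 3.03 over the 15 alternatives, with an edgeR, DESeq2 or limma adjusted p of at most 0.0132. Cd2, which encodes another ligand of CD48, had 0 counts in all libraries.

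With Ly9 included, the order of mean levels in control was Ly9 at 8.71 ± 4.66 CPM, Cd84 at 7.01 ± 4.14, Slamf9 at 1.54 ± 1.45, Slamf8 at 0.783 ± 0.900, Cd48 at 0.623 ± 0.569 and Slamf7 at 0.0390 ± 0.0675 (SD, n = 3). In control the mean ± SD range of each gene overlapped that of the next in this order, so the order is not firm. In CPN the order was Ly9 at 51.9 ± 17.5 CPM, Slamf7 at 41.1 ± 10.6, Slamf9 at 4.86 ± 3.39, Cd84 at 2.41 ± 1.46, Slamf8 at 0.600 ± 0.750 and Cd48 at 0.525 ± 0.541. There the ranges of Ly9 and Slamf7 overlapped and lay above the others. Those of Slamf9, Cd84, Slamf8 and Cd48 each overlapped the next in the order.

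The summed level of the 8 members was 11.9, 5.51 and 12.6 CPM in control 1 to 3 and 36.1, 62.0 and 50.5 CPM in CPN 1 to 3. Without Slamf7 the sums were 11.9, 5.51 and 12.5 CPM in control and 6.72, 11.8 and 6.70 CPM in CPN, and the groups overlapped. Slamf7 held between 81.0% and 86.7% of the members' counts in the CPN libraries and at most 0.926% in a control. Adding Ly9 gave 16.7 to 20.5 CPM in control and 71.8 to 132 CPM in CPN. Slamf7 and Ly9 together held between 90.6% and 93.3% of those counts in CPN and between 25.2% and 70.9% in control. In bulk samples, fewer cells with a transcript and less of it per cell cannot be told apart.

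**Figure D2:**
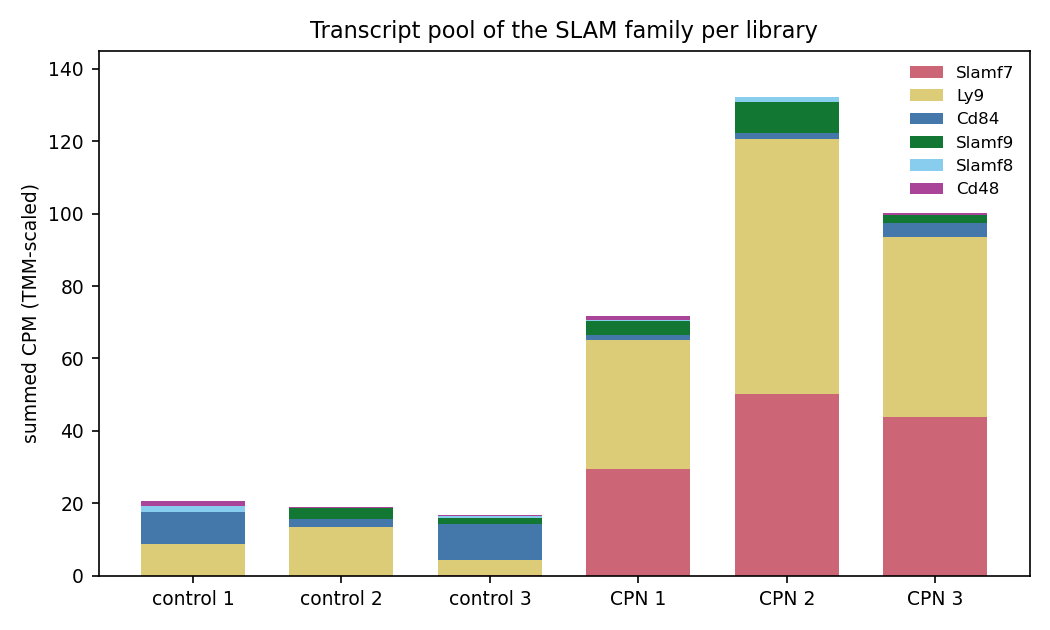
Summed CPM of 6 SLAM family genes (vertical axis) in each library (horizontal axis), with bar segments for Slamf7, Ly9, Cd84, Slamf9, Slamf8 and Cd48. The CPN bars reach 71.8 to 132 CPM and consist mostly of Slamf7 and Ly9, while the control bars end between 16.7 and 20.5 CPM.

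The genes beside the family were read in chromosome order. Alyref2, before Cd244, had 9.12 ± 3.60 CPM in control and 4.50 ± 1.41 CPM in CPN and did not pass (edgeR adjusted p = 0.304). Itln1 and Vangl2, which flank the cluster, had 4 and 12 counts in all. Beside Slamf9, Pigm and Tagln2 did not pass (edgeR adjusted p = 0.216 and 0.197), nor did Dusp23 beyond Slamf8 (0.534). From Alyref2 to Dusp23, 11 genes outside the 8 were tested and 4 rose, among them Ly9, where 7.62% of all tested genes rose. The others, named after their values were seen, were Copa, Pea15a and Igsf8, with log2 fold changes of 0.55, 1.07 and 0.64. Each of these 3 calls ended without control 1, control 3 or CPN 1, and those of Copa and Igsf8 also without CPN 3, with library totals alone or with the replicate block. The call of Copa also ended without CPN 2. Slamf7 and Ly9 were neighbours that were both higher, and the rise of Slamf7 had served to choose the family. Cd48 and Slamf1 on the next stretch were low or at 0 in both groups, so whether they changed cannot be read.

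**Figure D3:**
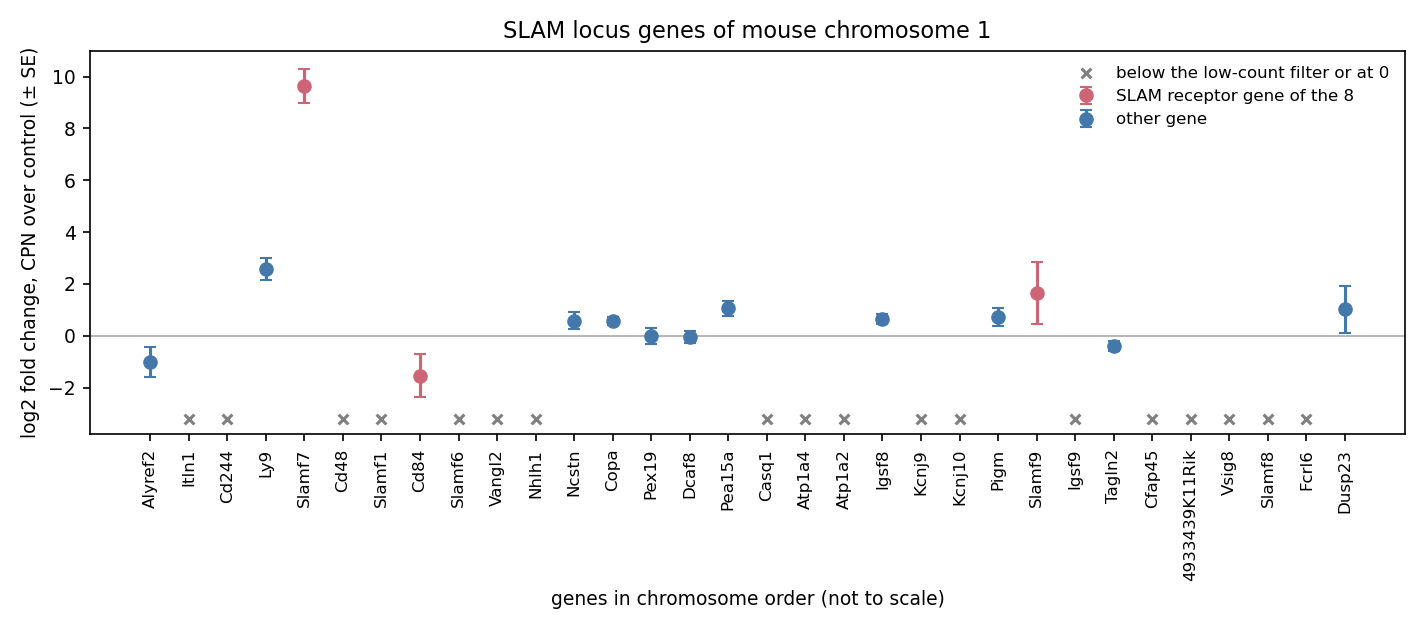
Log2 fold change of CPN over control (vertical axis, with SE) for genes from Alyref2 to Dusp23 in chromosome order (horizontal axis, not to scale). Red points are SLAM genes of the 8, blue points other genes, and crosses genes too low to test; the Slamf7 value of 9.64 is fitted on 1 control count and is no bound.

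Genes linked to the family were listed as well: tail adaptors, kinases and phosphatases, Ly9 and Cd2, and genes of engulfment and the phagosome. Of the 37 listed, 33 were tested. Of the 33 tested, 6 rose and 3 fell, which is 27.3%, against 14.0% of all tested genes. Because the lists were written with earlier results of these data known, the shares of the lists are a description. Their median log2 fold change was 0.02, against -0.01 over all genes. Among the tail adaptors, kinases and phosphatases only Ptpn6 and Inpp5d passed, and the other calls came from the remaining lists. The adaptor genes Sh2d1a (SAP), Sh2d1b1 (EAT-2) and Sh2d1b2 had 0 counts, apart from 1 count of Sh2d1b1 in CPN 3. None of the 8 kinase genes passed. Fyn, the kinase that SAP brings to the tails, had 46.5 ± 4.84 CPM in control and 67.0 ± 17.3 CPM in CPN (SD, n = 3, edgeR adjusted p = 0.173). Lyn and Csk had fitted log2 fold changes of 0.26 ± 0.175 and -0.57 ± 0.231 (SE), and Csk did pass, as lower, without CPN 3 (edgeR adjusted p = 0.0406).

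Of the 4 phosphatase genes, 2 fell and none rose, where 6.39% of all tested genes fell and 7.62% rose. Ptpn6, which encodes SHP-1, was at 299.7, 209 and 310.1 CPM in control and 152, 106 and 121 CPM in CPN. The groups did not overlap, and the fall was 2.16-fold (edgeR adjusted p = 0.00309). Inpp5d, which encodes SHIP-1, was at 57.2, 58.9 and 70.0 CPM in control and 31.9, 34.6 and 29.7 CPM in CPN, a 1.94-fold fall (edgeR adjusted p = 0.0113). The Inpp5d call ended without control 3 (edgeR adjusted p = 0.0757). Ptpn11 and Ptprc, which encode SHP-2 and CD45, had fitted log2 fold changes of 0.18 ± 0.277 and 0.00 ± 0.164 (SE).

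Of 10 genes listed around engulfment, 4 rose and 1 fell, where 7.62% of all tested genes rose and 6.39% fell. The list held the integrin subunits Itgam and Itgb2, the adaptor genes Tyrobp and Fcer1g, and Cd47 with Sirpa. It also held the IgG Fc receptor genes Fcgr1, Fcgr2b, Fcgr3 and Fcgr4, so it is wider than partners of SLAMF7. Itgam, the integrin subunit CD11b, was at 64.9, 63.7 and 53.4 CPM in control and 189, 226 and 303 CPM in CPN, a 3.94-fold rise (edgeR adjusted p = 5.44e-05). Its partner subunit Itgb2 had 221 ± 38.3 and 154 ± 19.0 CPM in control and CPN (SD, n = 3) and did not pass (edgeR adjusted p = 0.0863). Fcgr2b, which encodes the Fc receptor that inhibits, was 8.17-fold higher (edgeR adjusted p = 0.000144), going from 3.04, 7.43 and 5.73 CPM to 50.3, 41.6 and 39.9 CPM. Fcgr1, the high-affinity IgG receptor, was at 0.687, 17.4 and 3.16 CPM in control and 82.8, 132 and 80.6 CPM in CPN. Control 2 was the highest of the Fcgr1 controls, and the groups did not overlap. It rose by 3.82 on the log2 scale (SE 0.719, edgeR adjusted p = 0.00338), a value that was 5.74 without control 2 and 3.26 without control 1.

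Tyrobp, which encodes the adaptor DAP12, fell 1.65-fold, from 757, 728 and 744 CPM to 423, 423 and 507 CPM (edgeR adjusted p = 0.00602). Fcer1g, the other adaptor with an activation motif, had 581 ± 6.02 CPM in control and 744 ± 103 CPM in CPN (SD, n = 3) and did not pass (edgeR adjusted p = 0.158). Cd47, the signal that protects cells from engulfment, rose 1.73-fold (edgeR adjusted p = 0.0132), and this call ended without control 1 or CPN 1 (edgeR adjusted p = 0.0674 and 0.0571). Sirpa, which encodes the CD47 receptor, had 423 ± 24.0 CPM in control and 341 ± 61.9 CPM in CPN (SD, n = 3) and did not pass (edgeR adjusted p = 0.287).

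Of 10 genes for the phagosome partners of SLAMF1 and SLAMF8, 1 rose and none fell. Over all tested genes 7.62% rose and 6.39% fell, so this count is near the general share. Cybb, the catalytic subunit of the phagocyte oxidase that SLAMF8 is known to restrain, was at 103, 219 and 209.7 CPM in control and 622, 490.2 and 456 CPM in CPN. The groups did not overlap, and the rise was 2.95-fold (edgeR adjusted p = 0.00127). The oxidase genes Ncf1 and Rac2 had fitted log2 fold changes of -0.58 ± 0.197 and -0.28 ± 0.167 (SE) and did not pass (edgeR adjusted p = 0.0704 and 0.331). Ncf1 did pass, as lower, with library totals alone, by DESeq2, with no filter and without control 1 (adjusted p of 0.0248 to 0.0353). Pik3c3, also of this list, had 31.6 ± 11.5 CPM in control and 14.5 ± 4.08 CPM in CPN (SD, n = 3). Its groups did not overlap, and it did not pass (edgeR adjusted p = 0.0533). Under the same alternatives as Ncf1 it did pass, as lower.

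**Figure D4:**
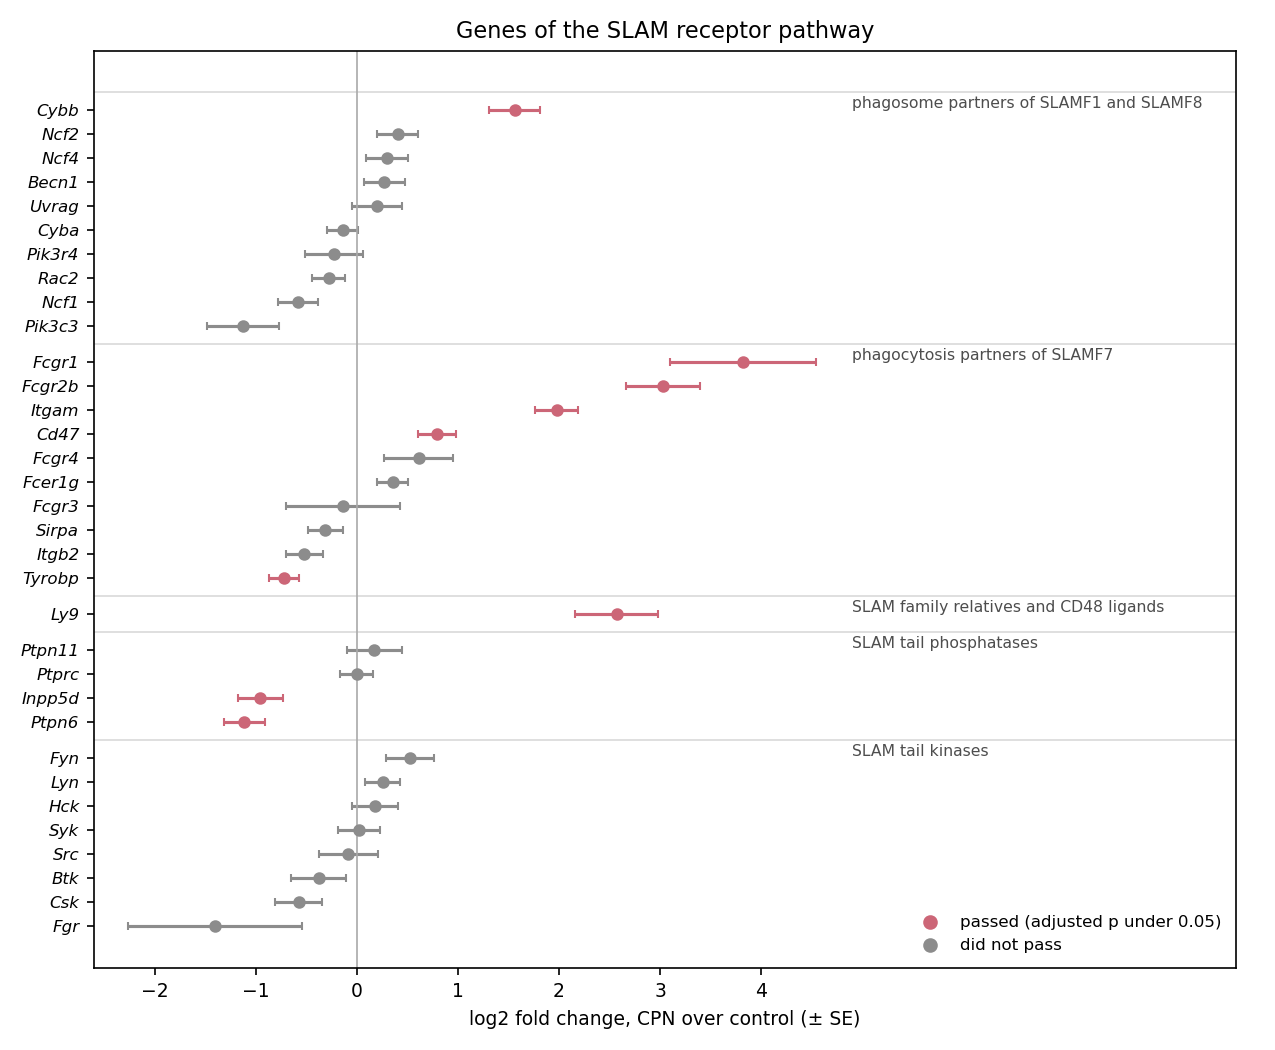
Log2 fold change of CPN over control (horizontal axis, with SE) for the 33 tested pathway genes (vertical axis), grouped by role. Red points passed edgeR's test at an adjusted p of 0.05 and grey points did not. Of the red points, Ly9, 4 genes of the engulfment list (labelled as SLAMF7 partners) and Cybb lie right of 0. Ptpn6, Inpp5d and Tyrobp lie left of it.

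Genes whose pattern over the 6 libraries was most like that of a tested member were found among 9901 genes by the root mean square difference of gene-centred log2 CPM. For Slamf7 these were Urah, S100a8 and Stfa3, with differences of 0.307, 0.472 and 0.604. Urah, an enzyme of urate breakdown, had 0 counts in every control and 29.4 ± 8.68 CPM in CPN (SD, n = 3). S100a8, a calcium-binding protein of granulocytes and inflamed macrophages, had 1 count in control and 23.7 ± 9.41 CPM in CPN. Stfa3, a cysteine protease inhibitor, also had 1 count in control and 21.1 ± 6.88 CPM in CPN. All 3 were chosen for likeness to Slamf7, controls at or near 0 included.

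For Cd84 the nearest genes were Bahcc1 and Klf10, with differences of 0.162 and 0.217. Bahcc1 was at 9.03, 2.28 and 9.35 CPM in control and 1.08, 1.83 and 3.35 CPM in CPN. Klf10, a transcription factor gene induced by TGF-beta, was at 44.2, 18.7 and 56.8 CPM in control and 9.36, 13.1 and 22.3 CPM in CPN. Both were chosen for likeness to Cd84, the low control 2 included. For Slamf9 the nearest were Arsg, Katnal1 and Pcx, with differences of 0.433, 0.489 and 0.500, and the 0 of Slamf9 in control 1 entered that choice.

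Markers of other cell types moved with Slamf7 and Ly9 in a few genes. The 13 T and NK cell markers summed to 2.84 to 7.01 CPM in control and 14.8 to 31.0 CPM in CPN, mostly from Lck. This kinase gene of lymphocytes rose 4.59-fold (edgeR adjusted p = 0.0122), while Cd3g, Zap70, Cd8a, Ncr1, Klrb1c, Nkg7, Gzma and Gzmb were at 0 in every library. The Lck call ended without CPN 1 or CPN 2 (edgeR adjusted p = 0.0539 and 0.0675). Cd247 had 19, 15 and 0 counts in CPN and up to 6 in a control, Cd4 had 20 counts in CPN 2, Cd3e 8 in control 1 and Cd3d up to 4 in a CPN library. The 7 B and plasma cell markers with an entry summed to at most 0.655 CPM in a library, with Cd79a at 4 counts in control 3 and Ebf1 at 5 in CPN 2. Of 8 granulocyte and mast cell markers with an entry, S100a8 rose, Csf3r had 3, 30 and 32 counts in CPN and at most 2 in a control, S100a9, which encodes the usual partner of S100A8, had 1 count in all, Mpo had 6 counts in CPN 1, and Elane, Cpa3, Mcpt4 and Tpsb2 were at 0. These 8 summed to 0.0981 to 0.351 CPM in control and 19.8 to 38.5 CPM in CPN.

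The 7 stromal markers summed to 0 to 6.23 CPM in control and 12.2 to 20.4 CPM in CPN, with Dcn at 0 counts in every control and 94, 59 and 98 counts in CPN. Lum had 11, 63 and 0 counts in CPN, Pdgfrb 14 in CPN 1, and Col1a1 and Col3a1 were highest in control 2 or CPN 2, at up to 37 and 13 counts. The sum of the 7 dendritic cell markers went the other way, from 21.4 to 27.0 CPM in control to 2.36 to 4.98 CPM in CPN. This fall came mostly from Itgax (CD11c), which fell 19.5-fold (edgeR adjusted p = 0.000852). Zbtb46, Clec9a, Ccr7 and Xcr1 had at most 23 counts in a library, and Flt3 and Siglech were at 0. In total counts Zbtb46 and Clec9a were higher in control, and Ccr7 and Xcr1 in CPN. Of 8 tested macrophage markers 4 rose and none fell, where 7.62% of all tested genes rose and 6.39% fell. Of 8 tested osteoclast markers 7 fell and 1, Mmp9, rose, and Calcr and Itgb3 were below the low-count filter. The macrophage list and the engulfment list share Itgam and Fcgr1. The part of these shifts in the values of the SLAM genes was not tested.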

How the data were processed

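The authors deposited counts per gene, 1 table per library, from QuantSeq 3′ libraries of TRIzol RNA, per the labels' protocols. Per the submitters' processing notes, Bowtie2, bedtools and mm10 were used, with no versions. Which annotation was counted, whether by strand, and what was done with duplicates or multiple alignments is not given in the sources used here. Of 23282 entries, 79 shared a symbol and were kept apart. Members and lists were chosen with earlier results of these data known.

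These counts went into edgeR 4.0.16 under R 4.3.3 (TMM, filterByExpr with minimum count 10 and minimum total 15, quasi-likelihood test, Benjamini-Hochberg adjustment over 11092 genes). The SE is the log2 fold change divided by the square root of F. Ratios of totals use TMM-scaled sizes with exact 95% intervals, which cover counting error only. Pattern likeness used log2 CPM with a prior count of 2 and genes with at least 5 CPM in 1 group. Named were all members, every passing pathway gene with up to 2 of the most abundant others per list, the 3 nearest patterns per tested member, flanking genes and markers; some items that the rule names are not reported here. Fyn, Itgb2 and Pik3c3 fall outside this rule and were added after their values were seen. Motifs were searched in RefSeq start regions. Alternatives were DESeq2 1.42.0, its type of size factors within edgeR, library totals, limma-voom (limma 3.58.1), 2 other filters, a replicate block, each library left out, control 3 and CPN 1 left out together, and, added after seeing the data, Rn45s removed. The code was tested on simulated counts.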

Additional observations from a re-analysis of the deposited data

How the results depend on the processing

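Slamf7 was the 1 member called under all 15 alternatives, which shows nothing about stability, since its appearance with CPN had served to choose the family. The count of called genes, 1554, was 884 to 1954 with 1 library left out: 995 without control 1, 884 without control 3, 1032 without CPN 1 and 915 without CPN 2. It was 446 without both control 3 and CPN 1, where 5 pathway genes passed against 9. Those 5 were Ptpn6, Ly9, Itgam, Fcgr2b and Cybb, which passed under all 15 alternatives, and the calls lost were Inpp5d, Tyrobp, Fcgr1 and Cd47. Pathway calls were 8 to 10 with 1 library left out. Library totals alone gave 690 higher and 914 lower genes, so that 43.02% of calls were higher against 54.38%, moved the median log2 fold change from -0.0079 to -0.129 and called 6 pathway genes higher and 6 lower. The cause of these shifts was not tested. Deviations of same-numbered samples from their group means had correlations of -0.05, 0.02 and 0.03, and other pairs lay between -0.07 and 0.06. With 3 libraries per group these values cannot decide whether the numbers pair samples, and the labels do not say. With the replicate block 1326 genes, 1 member and 9 pathway genes were called. Depth limits Slamf1, Slamf6 and Cd244, at 0 throughout, and Slamf8 and Cd48, with 37 and 31 counts in all.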
